A study of Homo sapiens with 95 samples.

Results

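The GFP control cells of this SFL (sparse full length RNA sequencing) series were examined for their response to benzo[a]pyrene (BaP), using the 3 libraries of BaP-exposed cells against the 3 libraries of DMSO-exposed cells, 6 of 95 samples in the series. The cells are AALE, an immortalized human bronchial epithelial line, transfected with a plasmid that carries Cas9 and EGFP but no guide RNA, so that they serve as the control of the knockout lines. All 8 lines of the series share the AALE background, and each received DMSO (the vehicle), BaP at 173 µM, the tobacco nitrosamine NNK at 490 µM or cigarette smoke condensate (CSC) at 24 µg/ml. The other 7 lines are HcRed, the vector control of the overexpression lines, CRISPR knockouts of CDKN2A or FAT1, and lines that overexpress FGFR1, NRF2, NRG1 or PIK3CA. The study calls the replicates biological. The length of exposure and whether each replicate was a culture of its own are not given in the sources used here, so p-values measure the spread between these libraries. A gene was tested when its mean count over the 6 libraries exceeded 1, which kept 13838 of the 27978 genes listed.

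BaP is a polycyclic aromatic hydrocarbon of tobacco smoke. In the cytosol the aryl hydrocarbon receptor (AhR), held by HSP90 and its co-chaperones, binds such compounds, moves to the nucleus, pairs with ARNT and binds DNA at a short core of letters, GCGTG. Its best known targets are the cytochromes CYP1A1 and CYP1B1, which oxidize BaP to quinones and to diol epoxides that form DNA adducts, and the feedback genes AHRR and TIPARP, which restrain the receptor. Oxidized metabolites can also release NRF2, a transcription factor of antioxidant and glutathione genes that binds the letters TGACNNNGC near its targets.

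The BaP libraries held 1034225, 523008 and 481230 counted reads and the DMSO libraries 1064885, 1068933 and 1319161, with 13788 to 15569 genes detected per library, so 3 reads corresponded to 2.27 to 6.23 CPM (counts per 1e+06 reads). The 10 basal airway markers all had reads, and their summed level was 7101 to 7512 CPM under DMSO and 6817 to 7394 CPM under BaP. Of the secretory markers 5 of 6 were at 0 in all 6 libraries, among them SCGB1A1 and MUC5AC, of the fibroblast markers 5 of 6 (COL1A2 and DCN among them) and of the endothelial markers 2 of 5, PECAM1 and CDH5. The leukocyte markers together gave 8.45 to 12.1 CPM under DMSO and 4.16 to 13.5 CPM under BaP, with CD3E at 0. The summed fibroblast markers ranged from 10.3 to 14.4 CPM under DMSO and from 13.4 to 43.6 CPM under BaP, and their part in the results was not tested. The read-weighted mean GC content of the expressed exons was 45.6% to 45.9% in the DMSO libraries and 46.8% to 47.25% in the BaP libraries, without overlap. In the other 7 lines it was 45.9% to 46.9% under DMSO and 46.8% to 48.3% under BaP. The CSC (47.3% to 47.4%) and NNK (47.4% to 47.8%) libraries of GFP cells also lay above DMSO. Structured RNAs took 0.507% to 0.617% of the reads under DMSO and 0.953% to 1.14% under BaP, and the part of these shifts in the results was not tested. The labels name no preparation batch, so one shared by the libraries of a treatment cannot be told apart from the treatment.

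The regions just before the start of 3 genes of the AhR circuit and of 2 NRF2 targets are shown as examples among genes that rose under BaP. These genes were picked by hand and each window holds a match, so they do not stand for all genes that rose. CYP1B1 and ALDH3A1 had no promoter in the set used. The windows are the 250 bases before the start, from RefSeq promoters on GRCh38.p14, written in the direction of transcription. Capitals mark the letters GCGTG (CYP1A1, AHRR, TIPARP) or TGACNNNGC (TXNRD1, GCLM) on either strand, and no match of one motif overlapped a match of the other. GCGTG also matched in the TXNRD1 (1 match) and GCLM (2 matches) windows, where it is left unmarked. TXNRD1 has other listed promoters, and the one shown is not the first by position.
CYP1A1 (chr15:74725529-74725778, minus strand): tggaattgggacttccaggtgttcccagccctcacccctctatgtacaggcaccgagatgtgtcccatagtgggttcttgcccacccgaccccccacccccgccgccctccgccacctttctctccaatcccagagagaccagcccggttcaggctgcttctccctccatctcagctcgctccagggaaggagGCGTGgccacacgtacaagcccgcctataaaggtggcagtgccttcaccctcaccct
AHRR (chr5:321464-321713, plus strand): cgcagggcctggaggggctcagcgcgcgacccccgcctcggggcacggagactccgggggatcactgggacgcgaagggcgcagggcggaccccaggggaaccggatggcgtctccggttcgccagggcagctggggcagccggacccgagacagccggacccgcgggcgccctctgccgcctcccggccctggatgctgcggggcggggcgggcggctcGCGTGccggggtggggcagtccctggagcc
TIPARP (chr3:156674340-156674589, plus strand): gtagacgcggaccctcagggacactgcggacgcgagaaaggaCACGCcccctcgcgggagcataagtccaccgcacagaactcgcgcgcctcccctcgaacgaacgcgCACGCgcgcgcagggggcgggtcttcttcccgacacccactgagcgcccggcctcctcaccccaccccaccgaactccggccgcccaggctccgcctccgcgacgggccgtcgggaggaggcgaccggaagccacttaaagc
TXNRD1 (chr12:104286782-104287031, plus strand): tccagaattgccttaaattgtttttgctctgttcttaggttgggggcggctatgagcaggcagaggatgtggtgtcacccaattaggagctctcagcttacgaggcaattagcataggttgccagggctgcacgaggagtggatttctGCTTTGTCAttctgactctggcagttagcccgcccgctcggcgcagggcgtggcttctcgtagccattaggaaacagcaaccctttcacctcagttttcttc
GCLM (chr1:93909431-93909680, minus strand): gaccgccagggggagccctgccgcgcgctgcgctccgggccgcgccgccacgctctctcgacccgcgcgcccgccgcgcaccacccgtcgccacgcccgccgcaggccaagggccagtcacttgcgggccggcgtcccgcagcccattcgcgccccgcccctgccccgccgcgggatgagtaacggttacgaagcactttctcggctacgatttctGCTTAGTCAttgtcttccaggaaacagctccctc
The GCGTG match of CYP1A1 began 57 bases and that of AHRR 30 bases before the start, and TIPARP had 2 matches, 208 and 142 bases before it. GCGTG was present in 53.8% of the 13 listed promoters of the 9 AhR targets found in the table, and in 32.2% of all 35116 promoters. It was also present in 43.5% of the 23 promoters of NRF2 targets, so it did not set the AhR targets apart from them. TGACNNNGC was present in 26.1% of the 23 promoters of 19 NRF2 targets, in 7.69% of the AhR target promoters and in 10.9% of all promoters. These shares describe letters in a window, not binding.

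The cytochromes of the AhR battery were among the largest rises in the GFP cells. CYP1A1 (chr15:75011883-75017877, minus strand, coordinates on GRCh37 throughout the results) was counted 407, 202 and 185 times in the BaP libraries and 11, 5 and 10 times in the DMSO libraries, or 388, 377 and 377 CPM against 10.6, 4.75 and 7.76 CPM. The 3 BaP libraries lay close together and far above every DMSO library, a 49.1-fold rise (log2 fold change 5.62 ± 0.30, SE, adjusted p = 3.01e-21 in limma). CYP1B1 (chr2:38294116-38337044, minus strand) stood at 689, 685 and 724 CPM under BaP and at 46.4, 52.3 and 69.0 CPM under DMSO. It rose 12.4-fold (log2 fold change 3.63 ± 0.13, adjusted p = 5.17e-29 in limma), from a level under DMSO that was already above that of CYP1A1 in every library. CYP1A2, the liver paralog, had 1 read in 1 BaP library and none in the other 5 and was not tested.

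**Figure D1:**
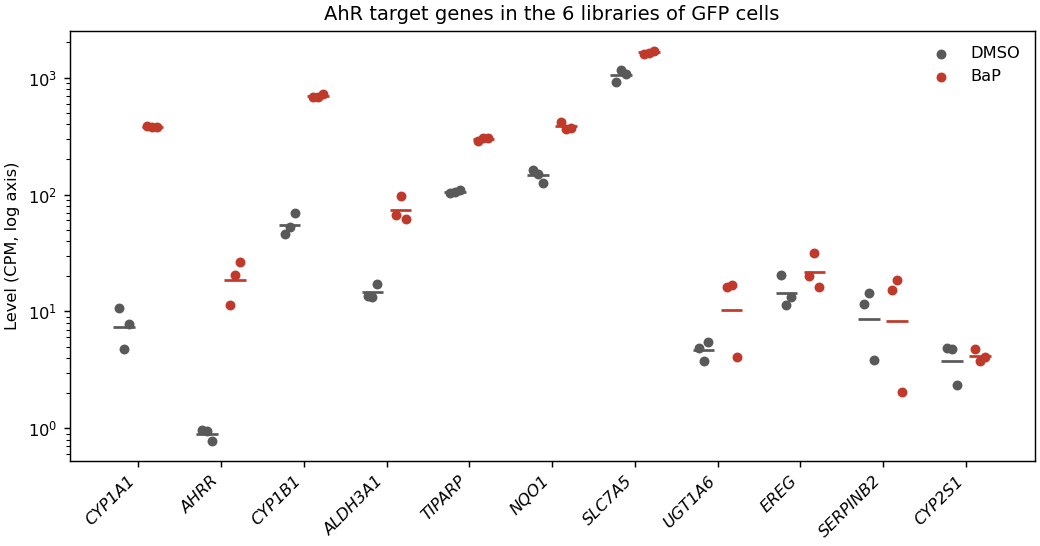
Levels of the 11 AhR targets tested, in CPM on a log axis, in the 3 DMSO (grey) and 3 BaP (red) libraries of GFP cells, with a bar at the geometric mean of each group. The BaP points lie above all DMSO points for CYP1A1, AHRR, CYP1B1, ALDH3A1, TIPARP, NQO1 and SLC7A5, and the groups overlap for UGT1A6, EREG, SERPINB2 and CYP2S1.

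Of the feedback genes of the receptor, TIPARP (chr3:156391024-156424559), an ADP-ribosyltransferase that marks AhR for loss, was at 287, 304 and 302 CPM under BaP against 103, 105 and 109 CPM under DMSO. The groups did not overlap, and the rise was 2.78-fold (log2 fold change 1.48 ± 0.11, adjusted p = 3.25e-15 in limma). AHRR (chr5:321829-438406), the AhR repressor, had 12, 11 and 13 reads in the BaP libraries and 1 read in each DMSO library. Per library size this was a ratio of 20.3, with an exact 95% interval of 6.42 to 103 that covers counting error only, and since AHRR reached the count filter only through its BaP reads its call is no support.

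Most genes of the receptor complex did not pass the test. AHR itself was at 165, 215 and 198 CPM under BaP and at 200, 210 and 207 CPM under DMSO, overlapping groups (log2 fold change -0.15 ± 0.11, adjusted p = 0.431 in limma). ARNT, its partner, did not pass the test (0.30 ± 0.16, adjusted p = 0.216), nor did the co-chaperone PTGES3 (-0.17, adjusted p = 0.246) or the coactivators NCOA1, NCOA2 and EP300. HSP90AA1, the chaperone that holds the unliganded receptor, fell from 3215, 3076 and 3113 CPM to 2378, 2298 and 2131 CPM (log2 fold change -0.45 ± 0.04, adjusted p = 1.37e-13 in limma). Of the 12 genes of the receptor complex HSP90AA1 was the 1 called lower, and the 2 called higher were the feedback genes TIPARP and AHRR (5.51% of all genes were called higher and 5.52% lower). Without AHRR, 1 of 11 was called higher and 1 lower.

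Of the 11 AhR targets tested 7 were called higher, AHRR among them. Without AHRR, 6 of 10 rose and none fell in limma at an adjusted p under 0.05, where 5.51% of all genes rose, and their median log2 fold change was 1.37 against 2.47e-05 over all genes. ALDH3A1, an aldehyde dehydrogenase of airway and cornea, was at 66.8, 97.1 and 61.2 CPM under BaP against 13.5, 13.3 and 17.1 CPM. It rose 4.81-fold (log2 fold change 2.27 ± 0.25, adjusted p = 1.39e-09), the third largest of the targets with more than 10 mean reads. NQO1, a quinone reductase shared by the AhR and NRF2 circuits, rose from 162, 151 and 126 CPM to 418, 366 and 367 CPM (1.43 ± 0.10, adjusted p = 1.48e-15). The amino acid carrier SLC7A5 rose less, from 909, 1168 and 1081 CPM to 1592, 1639 and 1697 CPM (0.63 ± 0.06). UGT1A6, a glucuronosyltransferase, was at 16.2 and 16.8 CPM in BaP libraries 1 and 2 but at 4.08 CPM in library 3, inside the DMSO range, which reached 5.43 CPM, and did not pass (adjusted p = 0.0688). It shares exons with the other UGT1A genes, so its count is uncertain.

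A trend with GC content ran through the comparison and sets how the remaining genes can be read. The test called 763 genes higher and 764 lower (11.0% of genes in either direction, 5.51% higher and 5.52% lower). The genes called higher had a median exon GC content of 59.2% and those called lower 39.4%, where all tested genes had 47.4%. When the genes were ordered by GC content and divided into 10 groups of like size, the median log2 fold change of the lowest group was -0.30, with 3 genes called higher and 254 lower, and that of the highest group was 0.51, with 275 higher and 2 lower. Removing from each library its trend with GC content and exon length left 111 genes higher and 150 lower of 13007 with known GC content (0.853% and 1.15%, 2.01% in either direction), where the same genes without correction gave 769 and 748. Of the genes first called, 93 of the higher and 97 of the lower were also called in the same direction after the correction. Without DMSO replicate 1 the uncorrected count was 917 and without BaP replicate 2 it was 959, in place of 1527.

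**Figure D2:**
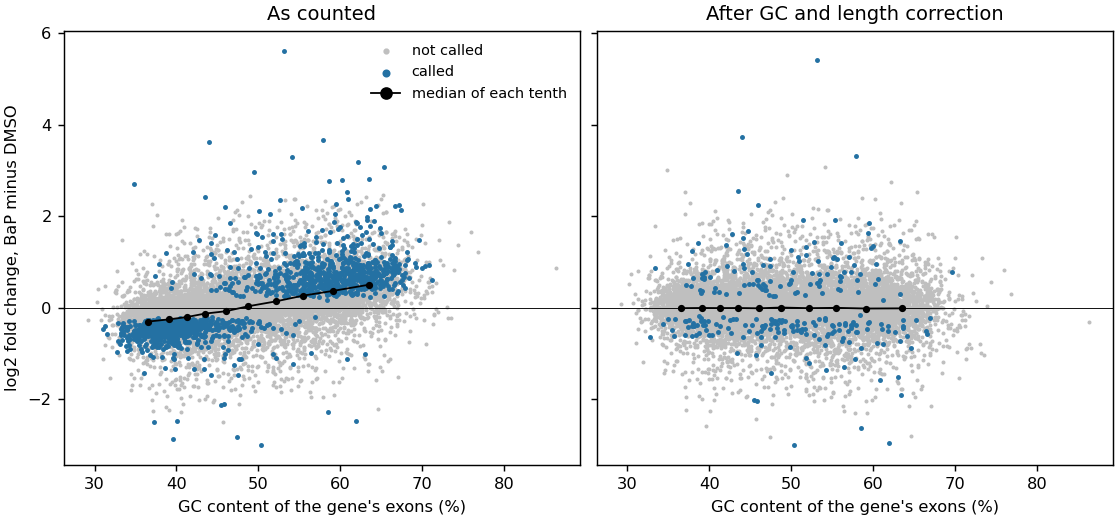
Log2 fold change (BaP minus DMSO) of each tested gene against the GC content of its exons in percent, before (left) and after (right) correction for GC content and exon length, with called genes in blue and the median of each of the 10 groups of genes in black. The medians climb from -0.30 to 0.51 on the left and lie between -0.01 and 0.01 on the right.

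The 6 AhR targets that rose, AHRR left out, were called after it too, at log2 fold changes of 5.43 (CYP1A1), 3.74 (CYP1B1), 1.86 (ALDH3A1), 1.62 (TIPARP), 1.53 (NQO1) and 0.18 (SLC7A5). The last of these is the exception, since SLC7A5 went from 0.63 to 0.18 (adjusted p = 0.0392). AHRR stood at 3.33, and its call is no support here either. HSP90AA1 still fell (-0.37). In what follows a gene that was called both ways is said to hold after GC correction. This does not cover DESeq2, which called 83 of the 138 named genes called by limma.

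Antioxidant genes were the list with the most members that rose. Of 28 tested NRF2 targets 18 rose and none fell, where 5.51% of all genes rose. Their median log2 fold change was 0.69, and 15 rose after GC correction, where 0.853% of all genes did. FTL, the light chain of the iron store ferritin, was at 469, 476 and 428 CPM under BaP and at 146, 143 and 140 CPM under DMSO, the lowest adjusted p of the list (3.22-fold, log2 fold change 1.69 ± 0.10, adjusted p = 7.20e-20 in limma). Its heavy chain FTH1 rose less, from 333, 318 and 387 CPM to 533, 569 and 589 CPM (0.68 ± 0.08). Both ferritin chains hold after GC correction, and since both have many processed pseudogenes their counts are uncertain to that extent.

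Thiol and glutathione enzymes rose with them. SRXN1, which repairs oxidized peroxiredoxins, was at 229, 246 and 241 CPM against 90.9, 84.6 and 81.4 CPM (1.47 ± 0.12, adjusted p = 1.11e-13). TXNRD1, the cytosolic thioredoxin reductase, was at 641, 597 and 585 CPM against 273, 289 and 306 CPM (1.08 ± 0.08, adjusted p = 1.89e-15). GCLC, the catalytic subunit of glutathione synthesis, was at 358, 323 and 326 CPM against 161, 119 and 171 CPM (1.18 ± 0.11, adjusted p = 4.18e-12). No BaP library of these genes fell inside the DMSO range. Their partners GCLM (0.69 ± 0.12) and PRDX1 (0.56 ± 0.09) rose by smaller amounts, and after GC correction GCLM stood at 0.95. The autophagy receptor SQSTM1, named after its values were seen, rose from 107, 129 and 133 CPM to 308, 344 and 377 CPM (1.44 ± 0.11).

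Enzymes of the pentose phosphate path and of NADPH supply rose as well. TKT, transketolase of the pentose phosphate path, went from 360, 402 and 405 CPM to 666, 713 and 746 CPM (0.84 ± 0.07). PGD and ME1 rose by 0.46 and 0.44, and both hold after GC correction. OSGIN1, an oxidative stress gene, had 18, 8 and 1 reads under BaP and 1, 1 and 2 under DMSO. In CPM the BaP library 3 lay just above the DMSO range (2.04 against 0.951 to 1.55 CPM). It was lost after GC correction (adjusted p = 0.0911).

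Among the genes that take BaP through its further metabolism, 7 of 29 tested rose and none fell (5.51% of all genes rose), of which 4 hold after GC correction (0.853%). Beside both cytochromes these were AKR1C3, an aldo-keto reductase at 9, 7 and 6 reads against 4, 7 and 0 reads (2.43 ± 0.66, adjusted p = 0.0103) whose near-identical paralogs can share its reads, and EPHX1, the microsomal epoxide hydrolase that opens the first epoxide. AKR1C3 was called in 5 of the 6 fits without 1 library and stood at 0.997 without DMSO replicate 3 (adjusted p = 0.248), and DESeq2 did not call it (adjusted p = 0.257). EPHX1 rose from 19.3, 22.8 and 24.0 CPM to 38.2, 56.0 and 63.2 CPM (1.10 ± 0.23, adjusted p = 0.000923, and 0.0496 after GC correction). GSTP1, a glutathione transferase, rose by 0.61 ± 0.08 as counted but stood at 0.11 after correction (adjusted p = 0.561). POR, the electron donor of the cytochromes, and AKR1B1 rose as counted (0.71 and 0.59) and were not called after correction. None of the 5 tested efflux pumps passed the test, the nearest being ABCC3 (0.59 ± 0.21, adjusted p = 0.0521).

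**Figure D3:**
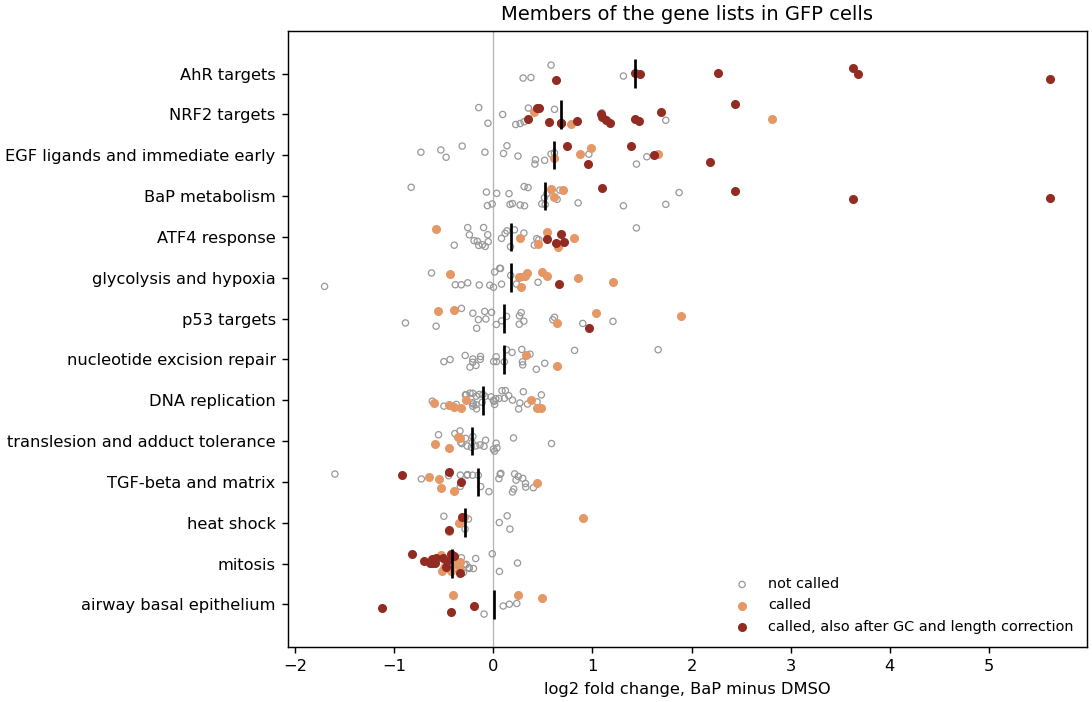
Log2 fold change (BaP minus DMSO) of the tested members of 14 gene lists, with open circles for genes not called, orange for genes called and dark red for genes called also after GC and length correction, and a black bar at each list's median. The AhR and NRF2 target medians lie at 1.43 (AHRR included) and 0.69, the mitosis median at -0.41.

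Of 26 tested EGF ligands and immediate early genes 9 rose and none fell, where 5.51% of all genes rose. EGR1, a growth factor-induced transcription factor, was at 136, 179 and 167 CPM under BaP against 22.2, 42.8 and 38.8 CPM, without overlap (4.55-fold, log2 fold change 2.19 ± 0.18, adjusted p = 2.44e-13). DUSP1, a MAP kinase phosphatase, rose from 38.7, 40.9 and 49.6 CPM to 108, 112 and 126 CPM (1.38 ± 0.16). FOS rose from 7, 7 and 13 reads to 32, 9 and 12 reads in libraries of unequal depth (1.62 ± 0.36, adjusted p = 0.00133), and JUN and FOSL2 rose by 0.96 and 0.74. These 5 hold after GC correction, where 0.853% of all genes rose, while IER2, JUNB, JUND and FOSL1 do not. The EGF ligand EREG, also an AhR target, did not pass (0.58 ± 0.31, adjusted p = 0.236).

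Genes that answer DNA damage gave a mixed picture. CDKN1A, the p21 cell cycle inhibitor and the best known p53 target, rose from 169, 198 and 212 CPM to 326, 448 and 412 CPM (1.95-fold, log2 fold change 0.97 ± 0.10, adjusted p = 5.08e-10, and 0.60 after GC correction). Of the other 25 p53 targets tested, BAX, DDB2 and GDF15 rose (1.03, 0.64 and 1.89) and ZMAT3 and CCNG1 fell (-0.56 and -0.39). Over all genes 5.51% rose and 5.52% fell. None of these 5 p53 targets was called after correction. GDF15 rested on 17 BaP reads and was called in 1 of the 6 fits that each left out a library. The list's median was 0.11 as counted and 0.04 after correction.

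Of 25 nucleotide excision repair genes, the pathway that removes bulky BaP adducts, DDB1 (0.33 ± 0.09) and DDB2 rose and none fell, a share near the 5.51% over all genes. Of 24 genes of adduct tolerance and fork repair, BRCA2 (-0.44 ± 0.10), BRCA1 (-0.36 ± 0.09), HLTF and RAD51AP1 fell and none rose, where 5.52% of all genes fell. After GC correction these 6 genes were not called, and DDB2 had the smallest adjusted p of them (0.189). BRCA2 lay at 234, 241 and 214 CPM under BaP against 314, 304 and 321 CPM under DMSO and stood at -0.10 after correction.

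Mitotic genes fell together. Of 34 tested, 21 fell and none rose, where 5.52% of all genes fell, and 14 fell after GC correction, where 1.15% did. MKI67, the proliferation antigen, went from 1752, 1817 and 1812 CPM to 1295, 1139 and 1112 CPM (log2 fold change -0.58 ± 0.05, adjusted p = 7.52e-13, and -0.53 after correction). The kinetochore motor CENPE went from 689, 650 and 644 CPM to 385, 360 and 371 CPM (-0.81 ± 0.08), the lowest of the list, and the kinetochore protein CENPF from 2046, 1949.5 and 1822.5 CPM to 1336, 1290.2 and 1099 CPM (-0.61 ± 0.05). TOP2A, the mitotic topoisomerase, and ASPM, a spindle pole protein, fell by -0.46 and -0.62, and all 5 hold after correction at -0.23 to -0.53. Fewer cells in mitosis and less of each RNA per cell cannot be told apart in bulk libraries. Of 43 DNA replication genes 3 rose and 5 fell, where 5.51% of all genes rose and 5.52% fell. After GC correction none of them rose and 2 fell, where 0.853% of all genes rose and 1.15% fell.

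Within the basal epithelial markers the keratins parted. KRT14, the basal keratin, was at 165, 207 and 184 CPM under BaP and at 360, 406 and 417 CPM under DMSO, without overlap (log2 fold change -1.13 ± 0.10, adjusted p = 3.40e-12, and -1.57 after GC correction). Its partner KRT5 fell by far less, from 3473, 3622 and 3380.5 CPM to 2911, 3258 and 3153 CPM (-0.19 ± 0.03, adjusted p = 0.000106, and -0.51 after correction). DESeq2 did not call KRT5 as counted (adjusted p = 0.167). The integrin chain ITGA6 fell (-0.43 ± 0.07) and holds after correction. KRT17 rose as counted (0.49 ± 0.06) and was not called after correction, and ITGB4 was 0.25 ± 0.06 as counted but -0.27 after correction, called in opposite directions. TP63, the basal lineage transcription factor, did not pass (-0.09 ± 0.11, adjusted p = 0.637). Of the 10 markers 2 rose and 4 fell as counted, and 0 rose and 4 fell after correction. Over all genes 5.51% rose and 5.52% fell as counted, and 0.853% rose and 1.15% fell after correction.

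The other large falls were mostly genes of few reads. ABCA1, a cholesterol exporter, had 3, 5 and 3 reads in the BaP libraries and 30, 18 and 32 in the DMSO libraries (4.38-fold lower, log2 fold change -2.13 ± 0.46, adjusted p = 0.000978), and was called in 5 of the 6 fits without 1 library. KRT7, a simple epithelial keratin, stood at -2.47 ± 0.84, from 4, 12 and 43 reads to 3, 1 and 0, but the DMSO libraries themselves spread from 3.87 to 33.3 CPM and the call was kept in 2 of the 6 such fits. STK39, a stress kinase, fell from 51.2, 67.5 and 48.9 CPM to 27.7, 18.7 and 26.5 CPM (-1.12 ± 0.24), and IL31RA, a cytokine receptor chain, from 23.2, 24.7 and 23.3 CPM to 8.58, 5.60 and 10.2 CPM (-1.46 ± 0.38). These 4 hold after GC correction, and IL31RA was not called by DESeq2 (adjusted p = 0.0760). ZNF852, MAK and MFAP5 (-1.47, -1.34 and -1.12) do not, and each was called in 1 of the 6 fits without 1 library.

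Further rises of more than 2-fold were SECTM1, a secreted T cell ligand (from 5.80, 18.1 and 15.5 CPM to 39.1, 59.7 and 61.2 CPM, log2 fold change 1.98 ± 0.30), the calcium channel subunit ORAI3 (2.05 ± 0.41), the small nucleolar RNA SNORA51 (2.04 ± 0.43) and the cytoskeletal adaptor PDLIM4 (1.77 ± 0.34). All 4 hold after GC correction, as does ESPN, an actin bundler, which rose by 1.48 and stood at 0.78 after it. MLXIPL, a glucose-sensing transcription factor, rose as counted (1.66 ± 0.39) and was not called after correction (adjusted p = 0.12). IL1A, the only one of 10 tested cytokine genes that passed, rose from 10.6, 11.4 and 19.4 CPM to 33.4, 35.5 and 24.5 CPM (1.19 ± 0.29, adjusted p = 0.00473, and 1.42 after correction). It was not called by DESeq2 (adjusted p = 0.0876). Over all genes 5.51% rose. In all, 160 genes rose by more than 2-fold, of which 40 were also called after GC correction.

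Lipid and matrix genes gave values that depend on the correction. SCD, the stearoyl-CoA desaturase, fell from 2341, 2394 and 2324 CPM to 1746, 1744 and 1719 CPM (-0.43 ± 0.04, adjusted p = 4.19e-12, and -0.40 after GC correction). ACSL3, which activates fatty acids, fell by -0.59 and holds after correction. FASN, the fatty acid synthase, lay at 830, 984 and 1081 CPM under BaP and at 670, 888 and 776 CPM under DMSO, so the groups overlapped. It was called higher as counted (0.26 ± 0.07) and lower after correction (-0.27). Of 31 matrix and TGF-beta genes 1 rose and 7 fell, where 5.51% of all genes rose and 5.52% fell. The falls of the collagen COL12A1 (-0.92 ± 0.20) and the laminin chain LAMA3 (-0.45 ± 0.07) hold after correction.

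Stress and nutrient lists are read against the 5.51% of all genes that rose and the 5.52% that fell. Of 31 targets of ATF4, the factor of amino acid shortage, 9 rose and 1 fell, and 4 rose after GC correction. Among these PHGDH, the first enzyme of serine synthesis, rose from 236, 236 and 237 CPM to 381, 407 and 347 CPM (0.68 ± 0.09, adjusted p = 1.35e-07), and DDIT4, a stress-induced inhibitor of mTORC1, rose by 0.71 ± 0.09. Of 27 glycolysis and hypoxia genes 9 rose and 1 fell, of which the glucose carrier SLC2A1 (0.66 ± 0.11) holds after correction. The Notch target HES1 rose from 13.5, 13.3 and 6.98 CPM to 29.6, 16.8 and 36.7 CPM (1.34 ± 0.33, adjusted p = 0.00463) and holds. Of 12 heat shock genes 1 rose and 5 fell, HSPA8 and HSP90AA1 also after correction. Of 24 cholesterol synthesis genes 6 rose and 2 fell, of 20 unfolded protein response genes 1 rose and 4 fell, and of 17 interferon-stimulated genes 1 rose, none of which was called in the same direction after correction. The rises of the last 2 lists were near the share over all genes.

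The response was set against that of HcRed, the other control line, and against the mean of the other 7 lines, since only a test of the difference can show a response particular to GFP cells. By limma none of 14196 genes differed from the HcRed response (0% called, 754 with an unadjusted p under 0.05), and edgeR's quasi-likelihood test called 3. None of 14392 differed from the mean of the 7 (0% called, 684 with an unadjusted p under 0.05), and edgeR called 3. A p that misses the threshold does not show that the responses were alike, so the differences are given with their intervals. These intervals are for each gene alone and are not adjusted for the number of genes tested. KRT14 and SLC7A11, given below, were among the genes of smallest p in the HcRed test. The CYP1B1 response was 0.52 log2 units above that of HcRed (95% interval 0.19 to 0.86, adjusted p = 0.783 in limma). The CYP1A1 response differed by -2.51 (interval -4.04 to -0.98, adjusted p = 0.783), where HcRed had only 0 to 2 CYP1A1 reads per DMSO library. TERT, the telomerase subunit, singled out after its values were seen, had 21, 32 and 87 reads under DMSO and 18, 8 and 11 under BaP, with overlapping CPM. In HcRed cells TERT had far more reads, 374, 241 and 291 under DMSO and 517, 534 and 216 under BaP. Its response was lower in GFP cells than the mean of the 7 by edgeR (-1.74, adjusted p = 0.000345), with the replicate block (-1.52, adjusted p = 0.00252), after GC correction (-1.62, adjusted p = 0.0431) and without DMSO replicate 1 (-1.93, adjusted p = 0.0102), and did not pass by limma as counted (-1.56, adjusted p = 0.215). That was the only pass among the 6 fits without 1 library of GFP cells. TERT did not pass with a mean count of at least 10 either.

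Several antioxidant genes had their largest fold change in GFP cells. In a fit of all 48 BaP and DMSO libraries, the log2 fold change of TXNRD1 was 1.08 ± 0.08 in GFP cells and 0.46 to 0.87 in the other 7 lines. SRXN1 was 1.47 ± 0.12 against 0.59 to 1.06, and NQO1, FTL, GCLC and SQSTM1 also had their largest value of the 8 lines in GFP cells, although for NQO1 the CDKN2A line followed closely. The mean FTL level of GFP cells was the lowest of the 8 lines under DMSO (143 CPM) and also under BaP (457 CPM). SQSTM1 too had its lowest DMSO level in GFP cells (123 CPM, and 342 CPM under BaP). For NQO1 and GCLC the BaP level was highest in GFP cells (383 and 335 CPM), and for TXNRD1 and SRXN1 it was not. The difference of the response from the mean of the 7 was 0.39 for TXNRD1 (interval 0.23 to 0.56, adjusted p = 0.188, and 0.0431 after GC correction) and 0.57 for SRXN1 (interval 0.31 to 0.82, adjusted p = 0.215). Both genes led that test by p in limma, so their intervals are no separate support. GCLM had rank 2 of 8 (0.69 ± 0.13) behind NRF2 cells (0.84 ± 0.14), and the response of SLC7A11, a cystine carrier, differed from that of HcRed by -0.65 (interval -0.95 to -0.34, adjusted p = 0.345). TIPARP and CYP1A1 had rank 5 of 8 and CYP1B1 rank 2, at 3.62 ± 0.15 behind FAT1 cells at 4.14 ± 0.14.

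The fall of KRT14 was deeper in GFP cells than in HcRed cells (-1.13 against -0.49, a difference of -0.62 with an interval of -0.88 to -0.35). This did not pass as counted (adjusted p = 0.132 in limma) and passed after GC correction (adjusted p = 0.000926). It also passed in 3 of the 12 fits without 1 library, at 0.0277 without DMSO replicate 1 of GFP cells, 0.0235 without DMSO replicate 2 of HcRed cells and 0.0293 without BaP replicate 3 of HcRed cells. NRF2 cells fell as far (-1.22 ± 0.09), so the depth of the fall was not a feature of GFP cells alone. MKI67 had its lowest value of the 8 lines in GFP cells (-0.57 ± 0.07), next to CDKN2A cells at -0.56 ± 0.08.

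**Figure D4:**
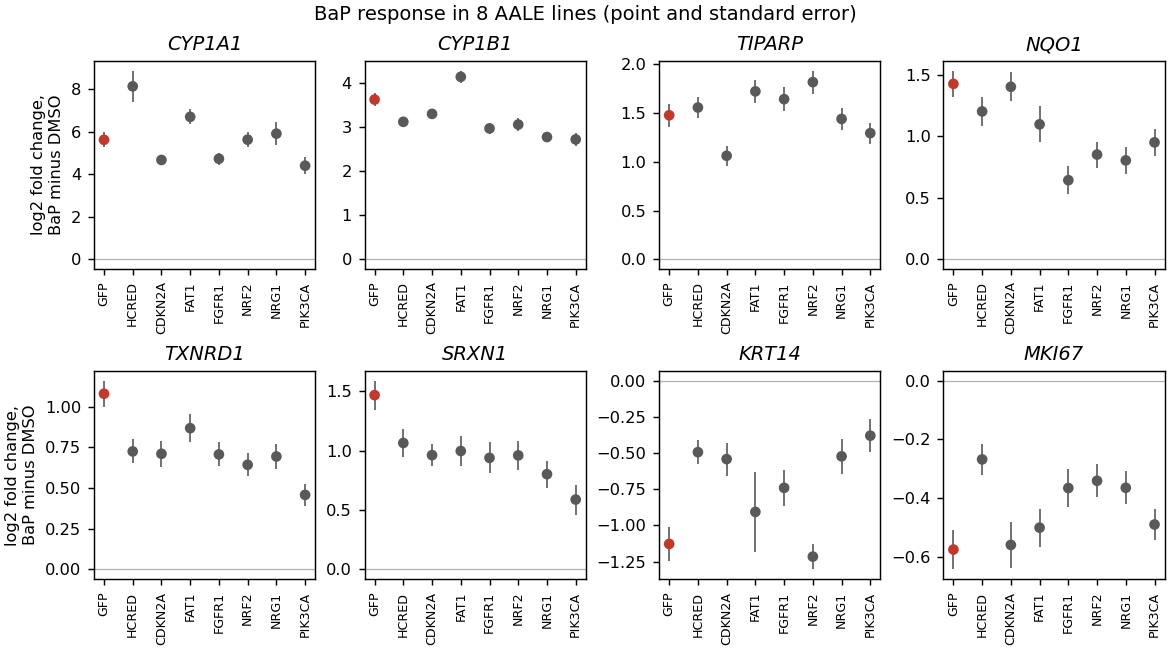
BaP response (log2 fold change, BaP minus DMSO) of 8 genes in the 8 AALE lines, from 1 fit of 48 libraries, with GFP cells in red and bars of 1 standard error. GFP cells have the highest TXNRD1 and SRXN1 values of the 8 lines, at 1.08 and 1.47, and a middle value for TIPARP.

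BaP was also set directly against the other 2 smoke exposures of GFP cells, without the DMSO libraries. The exposures differ in compound, dose and unit, so these are differences between the treatments as given. The levels here are CPM scaled over the 12 libraries of GFP cells. Against NNK, 37 genes were higher and 75 lower under BaP (0.279% and 0.565% of 13263). Against CSC, 56 were higher and 142 lower (0.401% and 1.02% of 13960). Leaving out BaP replicate 1 brought the counts to 57 against NNK and 72 against CSC, in place of 112 and 198.

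Of 11 AhR targets 5 were higher under BaP than under NNK (CYP1A1, CYP1B1, TIPARP, NQO1 and ALDH3A1) and none lower, where 0.279% of all genes were higher. The other 6 were not called, and 3 of the 11 lay below 0, the lowest at -0.65. CYP1A1 was at 389, 381 and 380 CPM under BaP and at 86.1, 93.1 and 79.3 CPM under NNK (log2 difference 2.13 ± 0.15, adjusted p = 1.68e-22 in limma). CYP1B1 was at 690, 692 and 730 CPM against 185, 148 and 217 CPM (1.96 ± 0.11, adjusted p = 2.67e-28). Every NNK library still lay above every DMSO library for both genes, with a highest DMSO level of 10.6 CPM for CYP1A1 and 68.5 CPM for CYP1B1. Against CSC, CYP1A1 was lower under BaP (508, 547 and 413 CPM under CSC, -0.36 ± 0.08, adjusted p = 0.00487), and CYP1B1 did not pass the test (-0.09 ± 0.06, adjusted p = 0.592). Of 12 AhR targets 3 were lower under BaP than under CSC and none higher, where 1.02% of all genes were lower.

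Antioxidant genes were compared in the same way. Of 28 NRF2 targets 8 were higher under BaP than under NNK and none lower, where 0.279% of all genes were higher and 0.565% lower. TXNRD1 was at 642, 603 and 590 CPM against 271, 260 and 346 CPM (1.13 ± 0.09, adjusted p = 4.96e-17). GCLC was 1.28 ± 0.12 higher. Against CSC 1 of 29 was higher and 1 lower, where 0.401% of all genes were higher and 1.02% lower. TXNRD1 lay at 603, 593 and 597 CPM under CSC (0.05 ± 0.06, adjusted p = 0.828), and GCLC was higher under BaP (0.42 ± 0.09, adjusted p = 0.00225). KRT14 was lower under BaP than under NNK (-0.95 ± 0.11) and did not pass against CSC (-0.34 ± 0.11, adjusted p = 0.0958).

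Fatty acid synthesis genes were lower under BaP than under both other exposures in 5 of 10 cases each, and none was higher. Of all genes 0.565% were lower than under NNK and 1.02% lower than under CSC. FASN was at 832, 993 and 1089.8 CPM under BaP, at 1620.4, 1559.7 and 1718 CPM under CSC and at 1812.5, 1949 and 2425 CPM under NNK (-0.80 ± 0.05 and -1.08 ± 0.06). SCD was also lower under BaP than under either (-0.40 ± 0.04 and -0.60 ± 0.04). Of 24 cholesterol synthesis genes 9 were lower than under NNK and none higher, while against CSC 2 were higher and 1 lower. Against CSC 0.401% of all genes were higher. SREBF1, the lipogenic transcription factor, was at 118, 117 and 130 CPM under BaP against 253, 287 and 315 CPM under CSC (-1.24 ± 0.12). The sterol exporter ABCA1 had the largest gap, at 2.87, 9.43 and 6.17 CPM under BaP against 108, 114 and 107 CPM under CSC (-4.35 ± 0.42, adjusted p = 3.77e-13). FASN, SCD and ABCA1 gave the same calls after GC correction.

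Of 31 TGF-beta and matrix genes 6 were lower under BaP than under CSC, and of 26 EGF ligands and immediate early genes 5, with none higher in either list (1.02% of all genes were lower). Thrombospondin, THBS1, was at 205, 200 and 167 CPM against 483, 444 and 368 CPM (-1.16 ± 0.10), and, outside these lists, SLC7A5 and the noncoding RNA RMRP were lower (-0.52 and -0.68). TXNIP, an inhibitor of thioredoxin that glucose induces, was the leading gene in the other direction, at 335, 328 and 313 CPM under BaP against 126, 160 and 117 CPM under CSC (1.26 ± 0.10, adjusted p = 6.23e-16). Its BaP levels did not leave the DMSO range of 313 to 358 CPM.

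**Figure D5:**
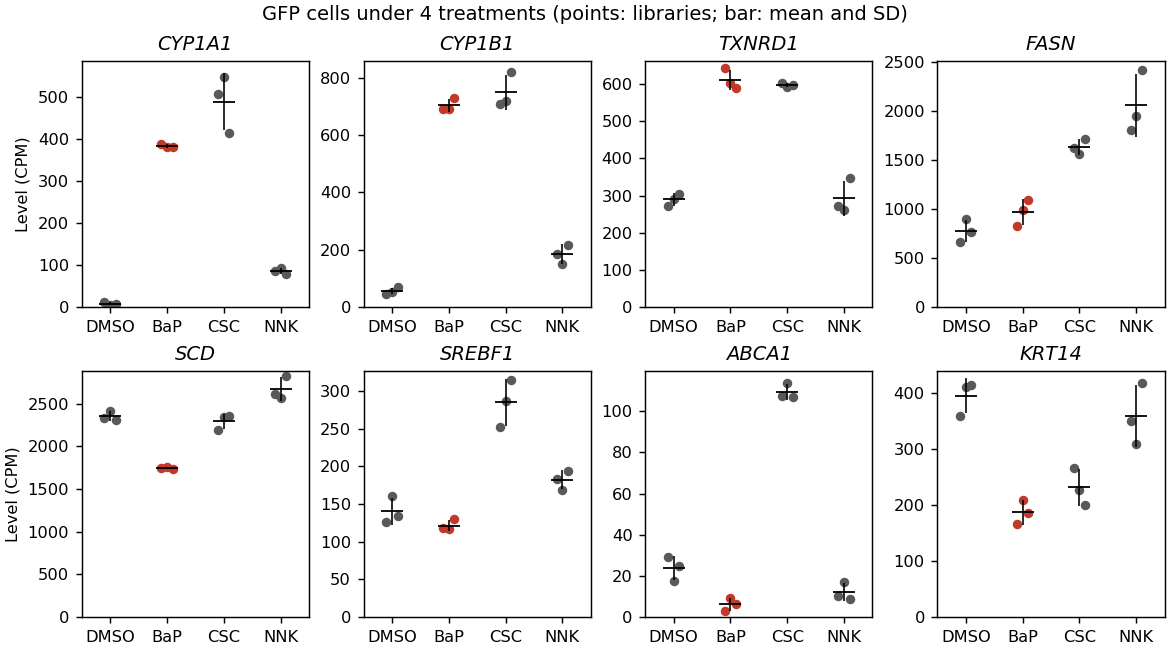
Levels of 8 genes in CPM in the 12 libraries of GFP cells under 4 treatments, with points for libraries (BaP in red) and a bar for mean and SD (n = 3). CYP1A1 and CYP1B1 are high under BaP and CSC and lower under NNK, FASN is lower under DMSO and BaP than under CSC and NNK, and ABCA1 is above 100 CPM under CSC only.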

How the data were processed

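SFL libraries, made with ribosomal RNA depletion and sequenced as single-end reads of 75 nt in 1 multiplexed pool, had been trimmed with cutadapt 1.12, checked with FastQC 0.11.5, aligned to hg19 with STAR 2.5.2b and counted per RefSeq gene with featureCounts, as the submitters' processing notes and methods state. The authors deposited raw counts per gene, 1 file per sample. Molecular identifiers and the strand setting are not given in the sources used here, so reads of overlapping or antisense genes cannot be told apart. Counting intervals cover counting error only.

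Groups came from the sample titles. As the study used TMM scaling and limma, genes with a mean count above 1 were tested with limma 3.58.1 on voom-transformed counts after TMM scaling (edgeR 4.0.16, R 4.3.3), two-sided, with Benjamini-Hochberg adjustment over all genes tested and a threshold of 0.05. Printed errors of log2 fold changes are standard errors. The BaP libraries of GFP cells enter every comparison and the DMSO libraries enter 3 of the 5, so the comparisons are not independent. GC content, exon length and coordinates came from GENCODE v44 on GRCh37, matched to 24309 of 27978 symbols (86.9%), and the correction subtracted a loess trend (span 0.3) of each library with GC content and then with length. DESeq2 1.42.0, the quasi-likelihood test of edgeR, other scalings, filters and sample sets, sample quality weights, a replicate block and the omission of each library served as alternatives. The scripts were tested on simulated data with known answers.

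Genes were named by rule: the AhR lists, the 15 largest rises and falls among called genes whose groups were disjoint and whose mean count reached 10, the 8 most abundant called genes, the leading members of each list, and the 5 leading genes of each other comparison. The text gives a selection of these. The gene lists and comparisons were chosen with earlier results of these data known. Replicates of a group differed by more than sampling noise, so no library was treated as a duplicate. A few genes are not reported here.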

Additional observations from a re-analysis of the deposited data

How the results depend on the processing

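As counted, BaP against DMSO gave 1527 calls, 451 with DESeq2, 2587 with a replicate block, 261 with GC and length correction, 623 with that correction and the replicate block, 840 with libraries thinned to the smallest, and 917 to 1371 without 1 library. The thinning and the joint correction with block were chosen after seeing the data. Other scalings, filters, sample sets and weights gave 1213 to 1706, with 864 higher and 644 lower under upper quartile scaling. Of 138 named genes called, 61 of the 128 with known GC content were called after the correction, 83 with DESeq2 and 137 with edgeR. Among named genes the direction changed for ITGB4 (-0.27 corrected, from 0.25), FASN (-0.27 corrected, -0.25 corrected with block), COL7A1 (-0.074 and -0.082), FADS2 (-0.0026 corrected), and, corrected with block, EEF2 (-0.012) and PCK2 (-0.00047). Against HcRed, 0 calls became 3 with edgeR, 2 with the block, 2 with GC correction and 0 to 6 without 1 library, the 6 without HcRed BaP replicate 3. Against the mean of the other 7 lines, 0 became 3 with edgeR, 9 with the block, 2 with GC correction and 0 to 1 without 1 library. Against CSC, 198 became 52 with DESeq2, 455 with the block and 72 to 198 without 1 library, 120 of them without CSC replicate 2. Against NNK, 112 became 33 with DESeq2, 427 with the block, 49 with GC correction and 57 to 141 without 1 library, 66 of them without NNK replicate 2. The causes were not tested. Whether same-numbered libraries shared a culture cannot be told from the labels. Deviations of same-numbered BaP and DMSO libraries correlated at 0.0519, 0.00227 and 0.0717 over 9707 genes, and 2 of 3 BaP libraries correlated best with their own number. For BaP and CSC the correlations were 0.0382, 0.0223 and 0.0682, with 3 of 3 best with their own number. For BaP and NNK they were 0.0553, 0.00166 and 0.0669, with 2 of 3. These are hints from the data and not from the design, and sharing was not tested. Depth limits genes under 6.23 CPM, which is 3 reads in the smallest library.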

Other observations

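The lists that follow are read against the 5.51% of all genes that rose and the 5.52% that fell. After GC correction these shares were 0.853% and 1.15%. Of 9 noncoding RNAs tested 4 rose and 1 fell, the latter MALAT1 (-0.32 as counted, and -0.10 and not called after GC correction). RPPH1, the RNA of ribonuclease P, rose from 2293, 2789.7 and 2534 CPM to 4573, 5161 and 5378 CPM (log2 fold change 0.96 ± 0.04, adjusted p = 8.41e-25 in limma), and had no GC value, so that it could not be tested after correction. NEAT1, a nuclear-retained RNA, rose from 1567, 1631 and 2218 CPM to 2786, 3336.5 and 3351 CPM (0.75 ± 0.06) and stood at 0.95 after GC correction. RMRP, the RNA of the RNase MRP complex, rose by 0.79 and by 0.30 after correction. Of 75 ribosomal protein genes 14 rose and 2 fell as counted, and 3 rose and 3 fell after correction. EEF2, a translation elongation factor among the most abundant genes called, rose by 0.42 as counted and stood at 0.00 after correction (adjusted p = 0.982). Of 50 replication-dependent histone genes 11 rose and none fell, and GC values were known for only 1 of them.

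ULK4, singled out after its values were seen, had 113, 115 and 1047 reads in DMSO libraries 1 to 3, 23, 17 and 261 in the BaP libraries, 51, 63 and 685 in the CSC libraries and 29, 11 and 166 in the NNK libraries of GFP cells, so that replicate 3 held the most reads under every treatment. Its BaP and DMSO groups overlapped, and its part in the comparisons was not tested.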
